A study of Mus musculus with 12 samples.

Results

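The genes that bring iron into cells, store it and let it out were examined in the left ventricle of 12 wild-type C57BL6 mice. They were chosen by name as 10 rows of the deposited count table, and all 10 were found among its 29564 rows. All 10 also passed the filter on low counts, together with 14333 genes in all. Poly(A) RNA was sequenced from 1 library per mouse, in 3 groups of 4. Control + Veh mice were non-failing and received vehicle (DMSO, PEG-300 and water). HFpEF + Veh mice were fed a high-fat diet with L-NAME, which inhibits nitric oxide synthase, as a model of preserved ejection fraction heart failure (HFpEF), and received the same vehicle. HFpEF + TYA-018 mice had that model too and were dosed orally with 15 mg/kg TYA-018, which inhibits the deacetylase HDAC6. Whether they had a single dose, as the title says, or daily doses for weeks, as the labels' protocol says, differs between the sources, and the study describes hearts taken hours after a dose. The labels gave no age or sex. The diet and L-NAME were given together, so their parts cannot be told apart. The libraries of Control + Veh are named C1 to C4, those of HFpEF + Veh V1 to V4, and those of HFpEF + TYA-018 T1 to T4. The animal numbers lay together within a group, and an order of handling that followed them cannot be told apart from the group.

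Most cells take up iron as transferrin-bound iron through the transferrin receptor, reduce it in endosomes and pass it to the cytosol. Ferritin, a shell of heavy and light chains, stores the surplus, and ferroportin is the known exporter, which circulating hepcidin removes from the membrane. Iron regulatory proteins, encoded by Aco1 and Ireb2, bind short hairpins called iron-responsive elements (IREs) when iron is scarce. Binding in a 3' UTR protects the transferrin receptor mRNA from decay, and binding in a 5' UTR blocks translation of ferritin and ferroportin mRNAs. Heart muscle needs iron for myoglobin and for the heme and iron-sulfur proteins of its mitochondria.

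IRE hairpins were searched in the coding transcripts of the GENCODE M21 annotation (GRCm38) because they are the sequence feature that links these genes. The pattern was an unpaired C, a stem of 5 bases, the loop CAGTGN, and 5 bases that pair with the stem (G-T pairs allowed), on the transcript strand. It was found in a UTR of 4 of the 10 genes (40%), against 160 of 21877 genes with a coding transcript (0.731%). The genes were chosen for their roles in iron handling, so the 4 matches are a description. The windows are printed 5' to 3' in DNA letters, 28 bases each, with the loop in capitals.
Tfrc, 3' UTR, exon 19, chr16:32631220-32631247 (+): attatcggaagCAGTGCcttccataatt
Tfrc, 3' UTR, exon 19, chr16:32631599-32631626 (+): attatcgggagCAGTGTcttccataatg
Tfrc, 3' UTR, exon 19, chr16:32631664-32631691 (+): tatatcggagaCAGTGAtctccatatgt
Tfrc, 3' UTR, exon 19, chr16:32631711-32631738 (+): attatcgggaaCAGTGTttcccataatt
Fth1, 5' UTR, exon 1 of 3 transcripts and exon 2 of 1, chr19:9982733-9982760 (+): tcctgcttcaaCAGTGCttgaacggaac
Ftl1, 5' UTR, exon 1, chr7:45459779-45459806 (-): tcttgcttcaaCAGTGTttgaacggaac
Slc40a1, 5' UTR, exon 1, chr1:45925465-45925492 (-): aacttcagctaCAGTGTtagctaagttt

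The receptor thus held 4 matches after its coding sequence, in 1 of its 3 coding transcripts, while both ferritin chains and the exporter held 1 each before theirs. Slc11a2, Ireb2, Aco1, Hamp, Trf and Steap3 held no match to these letters in their annotated UTRs. The pattern is strict, and it matched a UTR of only 2 of 6 other mRNAs known to carry IREs (33.3%). A gene without a match may therefore still carry an IRE, and a gene with matches may carry more.

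Levels per length differed widely among the 10 genes. On the TPM scale (a share of all transcripts that is corrected for length), Fth1 had the highest mean level in Control + Veh, 1349 ± 156 TPM (SD, n = 4). Ftl1 followed at 163 ± 18.4 TPM and Trf at 16.9 ± 1.83 TPM. The other 7 genes lay between 0.771 and 1.47 TPM in that group, in the falling order Steap3, Aco1, Hamp, Ireb2, Slc11a2, Slc40a1 and Tfrc, and the ranges of neighbors in that order overlapped. The ferritin chains and Trf kept the leading ranks in the same order in all 3 groups. The ranges of these 3 genes did not overlap within any group. The rank of Trf rests on deposited effective lengths of 377 to 466 bases in Control + Veh. Its longest annotated coding transcript has 2571 bases, so its TPM is uncertain. On counts relative to the library total (CPM, defined below), Trf had a mean of 21.2 in that group and Steap3 20.3. Hamp, at a mean of 0.446 CPM there, likewise owes its TPM rank to a deposited length of 160 bases.

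Differences between groups were measured on CPM, a gene's count relative to the total of its library after TMM scaling (a trimmed mean of log ratios between libraries), and fitted with edgeR over all 12 libraries. A gene is said to be called where its p, adjusted over all 14333 genes, was under 0.05. The genes were chosen with earlier results of these data known, so their fold changes are given as values with standard errors (SE), without p values. In HFpEF + Veh against Control + Veh, 2 of the 10 were called, 1 higher and 1 lower, where 21.2% of all tested genes were called (10.9% higher and 10.3% lower). In HFpEF + TYA-018 against HFpEF + Veh, 2 of 10 were called, 1 higher and 1 lower, against 19.3% of all genes (8.93% higher and 10.4% lower). In HFpEF + TYA-018 against Control + Veh, 1 of 10 was called, higher, against 5.86% of all genes (3.12% higher and 2.74% lower). The 3 comparisons share libraries pairwise. The groups did not overlap in CPM for 2, 3 and 4 of the 10 genes, where 23.5%, 25.1% and 14.8% of all genes did not. The median log2 difference over the 10 genes was 0.02, 0.11 and 0.09, beside -0.01, 0.00 and -0.02 over all tested genes.

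**Figure D1:**
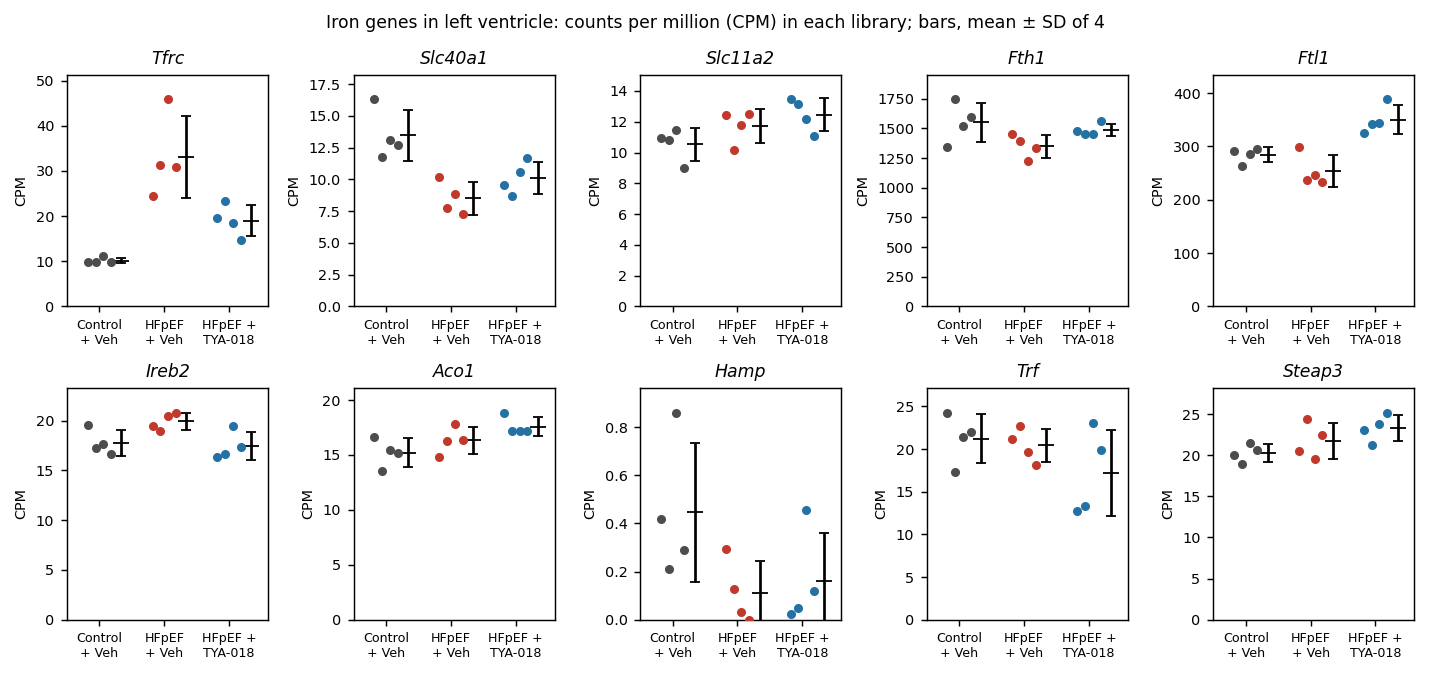
Each point is a library, with CPM on the vertical axis from 0 and the 3 groups side by side; the bar beside each group is the mean ± SD of its 4 libraries, and a bar that would pass below 0 is clipped there. Tfrc lies between 9.76 and 11.1 CPM in Control + Veh and between 24.4 and 45.8 CPM in HFpEF + Veh, with HFpEF + TYA-018 between them, and Slc40a1 lies lower in HFpEF + Veh than among controls.

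Uptake was led by the transferrin receptor Tfrc (chr16:32608920-32632794, plus strand), which showed the largest called difference among the 10 genes. In Control + Veh its levels were 9.93, 9.84, 11.1 and 9.76 CPM, and in HFpEF + Veh they were 24.4, 31.4, 45.8 and 31.0 CPM. In HFpEF + TYA-018 they were 19.5, 23.2, 18.6 and 14.7 CPM. No pair of groups overlapped, with Control + Veh lowest, HFpEF + TYA-018 between and HFpEF + Veh highest. The fitted level in HFpEF + Veh was 3.27 times that of Control + Veh, a log2 difference of 1.71 ± 0.18 (SE). HFpEF + TYA-018 stood at 0.573 times HFpEF + Veh (log2 difference -0.80 ± 0.17) and 1.87 times Control + Veh (log2 difference 0.91 ± 0.17). Tfrc was called in all 3 comparisons. The mitochondrially encoded share of counts also stood apart in HFpEF + Veh, at 43.1% to 47.7%. It was 37.0% to 40.6% in Control + Veh and 35.4% to 41.2% in HFpEF + TYA-018. The exact two-sided permutation p was 0.0286 against each, or 0.0551 after adjustment over 27 such tests. The part of this share in the differences was not tested. No 50-base stretch of Tfrc transcripts was shared with another annotated gene.

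The size of the Tfrc difference depended on whether length was divided out. The deposited effective length of Tfrc was 2484 bases in C4 and between 5860 and 8846 bases in the other 11 libraries, beside 4890 bases for its longest annotated coding transcript. C4 therefore reached 1.37 TPM, where C1 to C3 had 0.569, 0.507 and 0.638 TPM. HFpEF + Veh had 1.05 to 1.81 TPM, so the groups overlapped on that scale through C4. With the deposited lengths as offsets in the count model, the log2 difference between HFpEF + Veh and Control + Veh was 0.99 and was not called. The same model without C4, tried after the data were seen, gave 1.43 and the gene was called. The difference of HFpEF + TYA-018 from HFpEF + Veh was -0.78 with the lengths and was not called, and was -0.78 and called without C4. The difference of HFpEF + TYA-018 from Control + Veh was 0.22 with the lengths and 0.65 without C4, called in neither.

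**Figure D2:**
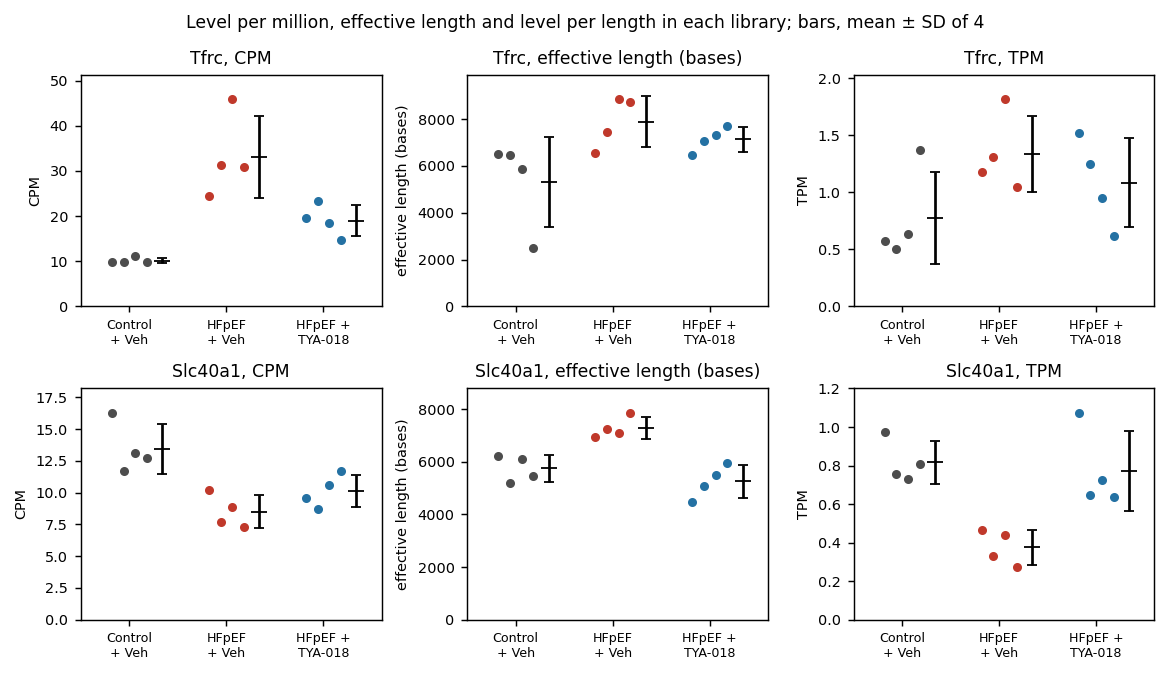
The upper panels plot Tfrc and the lower panels Slc40a1, with CPM, effective length in bases and TPM from left to right; points are libraries and bars are the mean ± SD of 4. In Tfrc a single Control + Veh library has an effective length of 2484 bases and a TPM of 1.37, while in Slc40a1 the HFpEF + Veh libraries have the longest effective lengths and the lowest TPM.

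Marker sums of several cell types moved with Tfrc, and those of dividing and red blood cells are given first. The summed level of 10 cycling cell markers was between 4.99 and 7.46 CPM in Control + Veh, between 19.5 and 51.1 CPM in HFpEF + Veh and between 9.19 and 16.7 CPM in HFpEF + TYA-018, with none of the 10 at 0 throughout a group. The summed level of 10 red cell markers was 1563 to 2318, 4797 to 14164 and 2307.04 to 3580.61 CPM in the same order, and Rhag was at 0 in all libraries of Control + Veh and HFpEF + TYA-018. All 10 cycling markers and 7 of 8 tested red cell markers were called higher in HFpEF + Veh against Control + Veh (10.9% of all genes). For both sums HFpEF + Veh differed from each other group with an exact two-sided permutation p of 0.0286, the smallest that 4 against 4 allows, or 0.0551 after adjustment over 27 such tests. Over the 12 libraries, the log2 level of Tfrc had a Pearson r of 0.947 with the cycling sum and 0.761 with the red cell sum. After each group's mean was subtracted, r was 0.603 and -0.382. For the macrophage, hepatocyte and ventricular cardiomyocyte sums r was 0.796, -0.765 and -0.714, and 0.016, -0.403 and 0.131 after the group means were subtracted. V1, the HFpEF + Veh library with the lowest Tfrc (24.4 CPM), had the highest red cell sum (14164 CPM), and V3, with the highest Tfrc, had the highest cycling sum. With a score of the red cell markers as a covariate, the log2 difference between the vehicle groups was 1.84, and with a score of the cycling markers, chosen after the data were seen, it was 0.79. Neither was called, where 2 and 0 of all 14333 genes were, at 1382 and 950 with an unadjusted p under 0.05, and both sums stood highest in HFpEF + Veh without overlap. In bulk tissue, fewer cells of a type and less RNA per cell cannot be told apart, and the part of these cells in the Tfrc difference was not tested further.

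**Figure D3:**
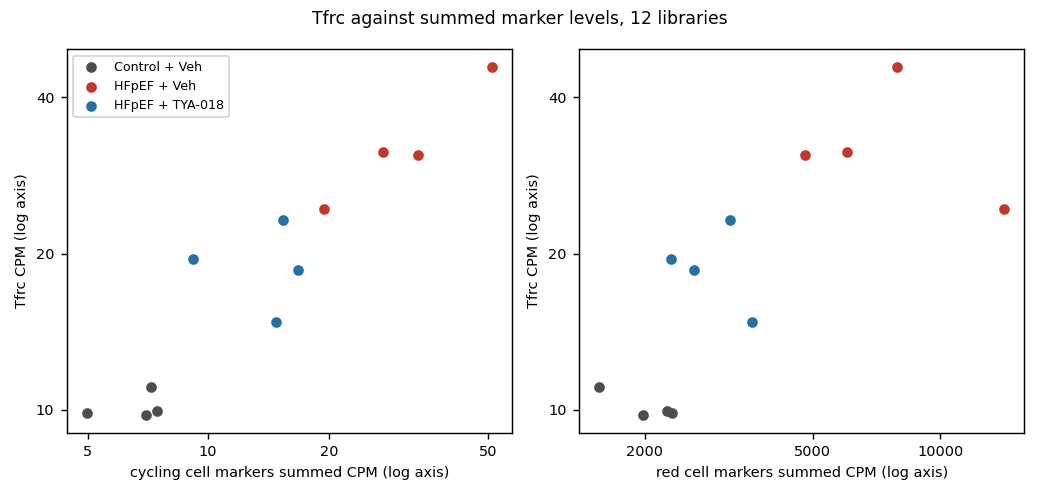
Tfrc CPM (vertical, log axis) is plotted against the summed CPM of cycling cell markers (left) and red cell markers (right), also on log axes; each point is a library, colored by group. Tfrc and the cycling sum are both lowest in Control + Veh and highest in HFpEF + Veh, and the library with the highest red cell sum, 14164 CPM, has the lowest Tfrc of its group.

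The 5 tested genes whose log2 CPM most resembled Tfrc over the 12 libraries were Tpx2 (Pearson r 0.971), Kif22 (0.959), Knstrn (0.955), Hbegf (0.954) and Tspan9 (0.954). Tpx2, Kif22 and Knstrn are genes of the mitotic spindle, and Hbegf encodes a growth factor of the EGF family. These points share the group differences that many genes showed, so the values describe likeness alone.

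The remaining uptake genes were called in no comparison on counts. Steap3, the ferrireductase that reduces iron in endosomes, ranged from 18.9 to 21.5 CPM in Control + Veh, from 19.5 to 24.4 in HFpEF + Veh and from 21.3 to 25.2 in HFpEF + TYA-018. Its log2 differences were 0.10 ± 0.08 between the vehicle groups, 0.10 ± 0.08 between the HFpEF groups, and 0.20 ± 0.08 for HFpEF + TYA-018 against Control + Veh. Per length it stood apart in HFpEF + TYA-018, at 1.97 to 3.63 TPM against 1.31 to 1.69 TPM in Control + Veh and 1.39 to 1.69 TPM in HFpEF + Veh, with no overlap. The ratios of mean TPM were 1.79 and 1.71, and with the lengths as offsets the log2 difference from Control + Veh was 0.60 and was called. TPM moved for genes at large too. Over all tested genes the median difference in log2(TPM + 1) was 0.17 from HFpEF + Veh and 0.08 from Control + Veh. On TPM rescaled over nuclear protein-coding genes these medians were -0.01 and 0.01. Slc11a2, the transporter DMT1 that moves iron out of the endosome, had means of 10.5 ± 1.06, 11.7 ± 1.10 and 12.5 ± 1.07 CPM (SD, n = 4) in controls, HFpEF + Veh and HFpEF + TYA-018. Its groups overlapped in every comparison, in CPM and in TPM. With the lengths as offsets its log2 difference between the HFpEF groups turned from 0.09 to -0.63 and was still not called.

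Trf, the plasma iron carrier transferrin, had levels of 24.3, 17.3, 21.4 and 22.0 CPM in Control + Veh and 21.1, 22.8, 19.7 and 18.1 CPM in HFpEF + Veh. In HFpEF + TYA-018 the levels were 12.8, 13.3, 23.0 and 19.9 CPM, so T1 and T2 lay below all other libraries and T3 and T4 within the range of the rest. The same 2 libraries had the lowest hepatocyte and plasma protein marker sums of their group, 6.64 and 12.3 CPM, where T3 and T4 had 83.8 and 39.9 CPM. In HFpEF + Veh, however, V2 had the lowest sum (5.34 CPM) and the highest Trf (22.8 CPM). Over the 12 libraries, the log2 levels of Trf and this sum had a Pearson r of 0.514, or 0.729 after group means were subtracted. The part of such cells in the Trf values was not tested. Trf was called in no comparison. Of its 50-base stretches 58.5% also occur in Gm20425, an overlapping annotated gene that held 3.36 estimated counts over all libraries.

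Export, represented by ferroportin (Slc40a1, chr1:45908068-45926523, minus strand), was lower in HFpEF + Veh. Its levels were 16.3, 11.7, 13.1 and 12.7 CPM in Control + Veh and 10.2, 7.72, 8.87 and 7.27 CPM in HFpEF + Veh. In HFpEF + TYA-018 they were 9.56, 8.72, 10.6 and 11.7 CPM. All HFpEF + Veh libraries lay below all Control + Veh libraries, and so did all HFpEF + TYA-018 libraries, whose highest value (T4, 11.67 CPM) lay just under the lowest control (C2, 11.73 CPM). HFpEF + Veh stood at 0.632 times Control + Veh, a log2 difference of -0.66 ± 0.13, and was called. The log2 difference was 0.25 ± 0.13 for HFpEF + TYA-018 against HFpEF + Veh, where the groups overlapped, and -0.41 ± 0.13 against Control + Veh, and neither was called by edgeR (the latter was by DESeq2).

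Slc40a1 on the TPM scale gave another picture of the HFpEF + TYA-018 libraries. Its effective length averaged 5743, 7277 and 5249 bases in controls, HFpEF + Veh and HFpEF + TYA-018, and the HFpEF + Veh lengths (6937 to 7862 bases) lay above those of both other groups. All exceeded the 3370 bases of its longest annotated coding transcript, the shortest being 4482 bases in T1, so values that rest on these lengths are uncertain. TPM was 0.728 to 0.975 in Control + Veh, 0.273 to 0.466 in HFpEF + Veh and 0.637 to 1.07 in HFpEF + TYA-018. HFpEF + TYA-018 thus lay above HFpEF + Veh without overlap and overlapped Control + Veh. With the deposited lengths as offsets, the log2 difference of HFpEF + TYA-018 from HFpEF + Veh was 0.58 and was called.

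The 5 genes most like Slc40a1 were Bbs1 (Pearson r 0.936), Orm1 (0.931), Mmp9 (0.925), Slc9a2 (0.915) and Fam73a (0.913), over the same 12 libraries. Orm1 encodes an acute phase plasma protein and Mmp9 a matrix metalloproteinase of leukocytes. Macrophages express ferroportin as they recycle iron from red cells. The summed level of 11 macrophage markers, none at 0 throughout a group, was 126 to 148 CPM in Control + Veh, but 189 to 237 CPM in HFpEF + Veh and 125 to 149 CPM in HFpEF + TYA-018, so it stood highest where Slc40a1 stood lowest. Their part in the Slc40a1 values was not tested. With the red cell or cycling score as a covariate, the log2 difference between the vehicle groups was -1.32 and -0.68, called with neither. Those fits called 2 and 0 of all 14333 genes there, and both marker sums stood highest in HFpEF + Veh without overlap.

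Hepcidin (Hamp), the hormone that degrades ferroportin and is made mainly by the liver, was near the limit of detection. Its estimated counts were 30.9, 13.2, 54.6 and 20.0 in Control + Veh, 16.997, 7.598, 2 and 0 in HFpEF + Veh, and 2.38, 3.08, 31.6 and 8 in HFpEF + TYA-018. The levels stayed under 0.861 CPM in every library, and the 0 in V4 allows up to 0.0521 CPM (3 counts, counting error only). The groups overlapped in all comparisons. The log2 differences were -1.96 ± 1.01, 0.49 ± 1.03 and -1.47 ± 0.98 between the vehicle groups, between the HFpEF groups, and between HFpEF + TYA-018 and Control + Veh, and none was called. All 4 Control + Veh libraries exceeded the filter's minimum count of 10, and 1 library of each HFpEF group did. A summed level of 10 hepatocyte and plasma protein markers moved alike, at 34.2 to 96.7 CPM in Control + Veh, but 5.34 to 20.1 CPM in HFpEF + Veh and 6.64 to 83.8 CPM in HFpEF + TYA-018. T3 had the highest Hamp and the highest marker sum of its group. In Control + Veh, however, C4 had the highest sum (96.7 CPM) and C3 the highest Hamp, and V4, with a Hamp count of 0, had a sum of 14.6 CPM. The source of these transcripts was not tested, and 16.6% of the 50-base stretches of Hamp also occur in Hamp2.

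Storage genes were the most abundant. Ferritin light chain Ftl1 (chr7:45457944-45459884, minus strand) had levels of 292, 264, 285 and 296 CPM in Control + Veh and 299, 237, 246 and 234 CPM in HFpEF + Veh. HFpEF + TYA-018 had 325, 342, 344 and 388 CPM, above every library of both other groups. HFpEF + TYA-018 stood at 1.38 times HFpEF + Veh, a log2 difference of 0.46 ± 0.09, and was called. Against Control + Veh the ratio was 1.23 (log2 difference 0.30 ± 0.09), which was not called by edgeR and was called by DESeq2. The TPM median over all tested genes was higher in HFpEF + TYA-018, as given for Steap3. In TPM, Ftl1 in HFpEF + TYA-018 (227 to 333) also lay above both other groups, at 2.12 times HFpEF + Veh and 1.61 times Control + Veh, and HFpEF + Veh (96.5 to 141) lay below Control + Veh (144 to 186). With the red cell or cycling score as a covariate the difference between the HFpEF groups was 0.79 and 0.41, called with neither. Those fits called 0 and 53 of all 14333 genes there. Both marker sums stood highest in HFpEF + Veh without overlap, so the fits cannot separate score from group. The vehicle groups overlapped, with a log2 difference of -0.16 ± 0.09, not called. V1 lay above all controls and V2 to V4 below them, and without V1 the differences from Control + Veh were -0.25 for HFpEF + Veh and 0.30 for HFpEF + TYA-018, both called.

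Ftl1 shares much sequence with pseudogenes, since 50.9% of its 50-base stretches occur in 15 other annotated genes. The 6 of these that are rows of the table held 0.0811% as many estimated counts as Ftl1, and Ftl1-ps1, which shares 47.3% of the stretches, was not analysed here. Reads from such copies could be counted under Ftl1.

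Ferritin heavy chain Fth1 (chr19:9980598-9985098, plus strand), the chain with ferroxidase activity, differed less on counts than per length. Its levels were 1347, 1744, 1520 and 1592 CPM in Control + Veh, 1449, 1398, 1226 and 1331 CPM in HFpEF + Veh, and 1478, 1449, 1452 and 1561 CPM in HFpEF + TYA-018. HFpEF + TYA-018 lay above HFpEF + Veh without overlap, with T2 at 1449.24 CPM as its lowest library and V1 at 1448.85 CPM as the highest of HFpEF + Veh. The log2 difference there was 0.14 ± 0.08 and was not called. Between the vehicle groups it was -0.20 ± 0.08, not called, and without C1 it was -0.26 and was called. The TPM median over all tested genes was higher in HFpEF + TYA-018, as given for Steap3. In TPM, Fth1 in HFpEF + TYA-018 (1594 to 2398) lay above both HFpEF + Veh (826 to 1160) and Control + Veh (1134 to 1477), at 1.90 and 1.37 times their means. The first of these was called by limma on either TPM scale, and it was not called with the lengths as offsets (log2 difference 0.46) or on rescaled TPM (0.47). The second was not called on any of these scales. The 5 genes most like Fth1 were Cdc37 (Pearson r 0.953), Ppp1r35 (0.952), Uqcrb (0.950), Ccdc103 (0.944) and Slc25a1 (0.936). Cdc37 encodes a partner of the chaperone Hsp90, Uqcrb a subunit of respiratory complex III, and Slc25a1 the mitochondrial citrate carrier.

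The ratio of heavy to light chain CPM was 4.61 to 6.62 in Control + Veh, 4.84 to 5.90 in HFpEF + Veh and 4.02 to 4.55 in HFpEF + TYA-018. On CPM every HFpEF + TYA-018 library lay below every library of the other groups. On TPM the ratio of T1 to T4 was 6.87 to 7.20, and it overlapped both other groups, through C1 (7.17) and V3 (6.03). The ratio of Tfrc to Fth1, a receptor against a store, was 0.00564 to 0.00737 in Control + Veh, 0.0168 to 0.0374 in HFpEF + Veh and 0.00944 to 0.0160 in HFpEF + TYA-018, with no overlap in CPM. On TPM, HFpEF + Veh overlapped Control + Veh through C4 (0.00121) and lay above HFpEF + TYA-018, which overlapped Control + Veh. Ferritin and the receptor are known to be set by iron regulatory proteins at translation and mRNA decay respectively, and protein and iron were not measured in these files.

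The regulators themselves moved by little. Ireb2, encoding IRP2, had 19.6, 17.2, 17.6 and 16.6 CPM in Control + Veh, 19.5, 18.9, 20.5 and 20.8 CPM in HFpEF + Veh, and 16.4, 16.7, 19.4 and 17.3 CPM in HFpEF + TYA-018. The groups overlapped in all 3 comparisons and none was called, with log2 differences of 0.17 ± 0.07 between the vehicle groups and -0.19 ± 0.07 between the HFpEF groups. Without C1 the first was 0.22 and was called, and without T3 the second was -0.25 and was called. Aco1, encoding the cytosolic aconitase that becomes IRP1 when it loses its iron-sulfur cluster, had means of 15.2 ± 1.30, 16.3 ± 1.24 and 17.6 ± 0.840 CPM (SD, n = 4) in controls, HFpEF + Veh and HFpEF + TYA-018. HFpEF + TYA-018 lay above Control + Veh without overlap, with a log2 difference of 0.21 ± 0.08 that was not called. On TPM these groups overlapped, and the ratio of their means was 1.53.

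**Figure D4:**
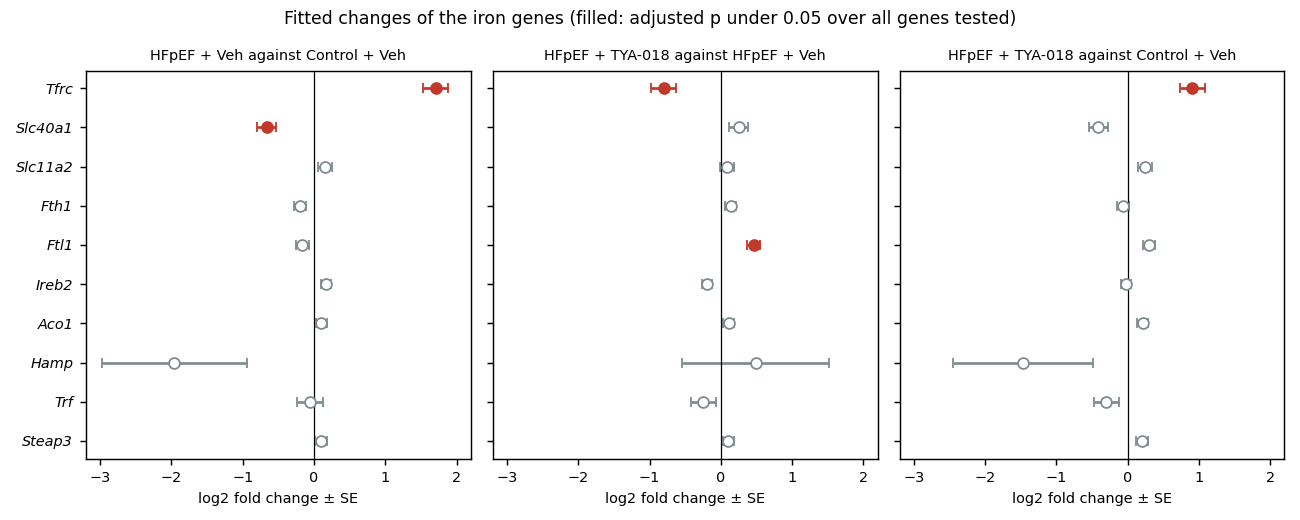
Each panel is a comparison, with the log2 fold change from edgeR on the horizontal axis and bars of ± SE; filled points are called at an adjusted p under 0.05 over all genes tested. Tfrc is filled in all 3 panels, Slc40a1 only in the first and Ftl1 only in the second, while Hamp has the widest bars, about 1 on the log2 scale.

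Other iron genes were counted over 7 lists written out with earlier results known, of which 57 of 74 genes were tested. In HFpEF + Veh against Control + Veh, 14 were called, 7 higher and 7 lower (21.2% of all genes). In HFpEF + TYA-018 against HFpEF + Veh, 17 were called, 8 higher and 9 lower (19.3% of all genes). In HFpEF + TYA-018 against Control + Veh, 1 was called, higher, where 5.86% of all genes were called (3.12% higher). It was Skp1a, part of the ubiquitin ligase that degrades IRP2, singled out after its value was seen. The median log2 differences of the 57 genes were 0.04, 0.02 and -0.02.

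Among import and trafficking genes 2 of 12 tested rose in HFpEF + Veh (10.9% of all genes) and 0 fell, and 4 of 12 were lower with TYA-018 against HFpEF + Veh (10.4% of all genes). Scara5, a receptor for ferritin, had 17.1 ± 2.38, 25.5 ± 1.62 and 16.8 ± 2.41 CPM (SD, n = 4) in controls, HFpEF + Veh and HFpEF + TYA-018. It rose by 0.57 ± 0.11 (log2, adjusted p = 0.00512) and was lower with TYA-018 by a log2 difference of -0.60 ± 0.11 (adjusted p = 0.00516). Slc39a14, the importer ZIP14, rose by 0.35 ± 0.09 (adjusted p = 0.0156). Ncoa4, the receptor that delivers ferritin to lysosomes, rose by 0.38 ± 0.10 (adjusted p = 0.0187), as 1 of 3 tested storage genes. Of 3 export genes Heph, the ferroxidase hephaestin, rose from 1.38 ± 0.411 to 2.88 ± 0.579 CPM (adjusted p = 0.00724) and was 1.44 ± 0.187 CPM with TYA-018 (adjusted p = 0.0106 against HFpEF + Veh). The genes named here were picked by their p between the vehicle groups. Both contrasts share the HFpEF + Veh libraries, so that choice favors an opposite difference with TYA-018.

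Of 10 tested hepcidin control genes 3 rose and 1 fell in HFpEF + Veh, where 10.9% of all genes rose and 10.3% fell. Smad6 and Smad7, inhibitors of BMP signaling, rose by 1.03 ± 0.12 (adjusted p = 0.000453) and 0.80 ± 0.14 (adjusted p = 0.0025) on the log2 scale. Neo1, encoding the hemojuvelin partner neogenin, fell by 0.64 on the log2 scale (adjusted p = 0.00231). All 3 differed in the opposite direction between HFpEF + TYA-018 and HFpEF + Veh, with log2 differences of -0.66, -0.52 and 0.74 (adjusted p = 0.00392, 0.0213 and 0.00159). These contrasts share the HFpEF + Veh libraries, and the 3 genes were picked by their p between the vehicle groups, which favors an opposite difference.

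Of 16 iron-sulfur cluster assembly genes 4 fell in HFpEF + Veh (10.3% of all genes) and 0 rose, and 9 had an unadjusted p under 0.05 (35.5% of all genes). Iba57, Fdxr and Hscb, which act in cluster transfer, electron supply and chaperoning, had log2 differences of -0.37, -0.42 and -0.35 (adjusted p = 0.0167, 0.0223 and 0.0271). With TYA-018 against HFpEF + Veh 5 of the 16 rose (8.93% of all genes). The summed level of 8 ventricular cardiomyocyte markers was 27490 to 38574 CPM in Control + Veh. It was 25485 to 27075 CPM in HFpEF + Veh and 29092 to 32001 CPM in HFpEF + TYA-018. The sum thus moved in the same direction, but its members did not all do so. In HFpEF + Veh 6 of the 8 were called lower (10.3% of all genes) and 1 higher (10.9% of all genes). The 1 higher was Actc1, with means of 5477 CPM in Control + Veh and 6848 CPM in HFpEF + Veh. The part of these markers was not tested. Of 8 genes of iron regulatory protein control 0 were called in HFpEF + Veh by edgeR, with 2 at an unadjusted p under 0.05. Of 5 heme breakdown and scavenging genes 2 fell (10.3% of all genes), namely Hpx, the plasma heme carrier hemopexin (2.63 ± 0.799 to 0.291 ± 0.215 CPM, adjusted p = 0.0118), and Blvra, biliverdin reductase (9.09 ± 0.925 to 6.90 ± 0.685 CPM, adjusted p = 0.0152). Hpx is a liver-made plasma protein gene, and 7 of 10 hepatocyte and plasma protein markers were also called lower (10.3% of all genes), with a median log2 difference of -2.33 beside -3.17 for Hpx. Their part in the Hpx value was not tested.

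Of 6 further mRNAs known to carry IREs, 4 were called in HFpEF + Veh, 3 higher and 1 lower, where 21.2% of all genes were called (10.9% higher and 10.3% lower). Alas2, the erythroid enzyme of heme synthesis and also a red cell marker, had 22.8 ± 4.88, 119 ± 68.5 and 33.7 ± 7.78 CPM in controls, HFpEF + Veh and HFpEF + TYA-018 (singled out after its value was seen). It rose by 2.38 ± 0.35 on the log2 scale in HFpEF + Veh (adjusted p = 0.00116).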

How the data were processed

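The deposited tables gave, per the labels and the study's methods, salmon 1.6.0 quantification of poly(A) libraries summarized per gene against mouse transcripts. The authors deposited 3 tables for the 12 libraries: estimated counts (not normalized), TPM, and a table of other values, the effective length in bases that salmon corrected for sequence, GC and position bias. The labels name a human build although the rows are mouse genes, and the read length and layout differ between the sources. All columns were used (0 left out). Library totals were 61.2 to 83.9 M estimated counts.

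Counts were rounded, filtered by filterByExpr (minimum count 10, 14333 of 29564 rows kept), scaled by TMM and fitted over all 12 libraries with edgeR 4.0.16 in R 4.3.3 by the quasi-likelihood F test, two-sided, with Benjamini-Hochberg adjustment. The SE is the log2 fold change divided by the square root of F. Alternatives used limma 3.58.1, DESeq2 1.42.0, TPM with pseudocounts of 1 and 0.1, the lengths as offsets, covariates, and each library left out. Marker sums were compared by exact permutation tests. The edgeR and limma steps were tested on simulated data. The 10 genes and all lists were chosen with earlier results of these data known. From each of the 7 other iron lists the text names the 3 genes with the smallest p among those called in HFpEF + Veh against Control + Veh, and for Tfrc, Slc40a1 and Fth1 the 5 genes of highest Pearson r. Coordinates and shared 50-base stretches came from GENCODE M21 (GRCm38), which is not the release the study used. Mice are separate animals per the labels' numbers.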

Additional observations from a re-analysis of the deposited data

Results flagged for a closer look

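The highest library stood apart from the others of its group in 2 of the 30 groups of 4 checked (10 genes in 3 groups), where chance gives about 1 in 20. Tfrc in Control + Veh reached 11.1 CPM in C3, where the nearest library had 9.93 CPM. The gap was 0.872 of the group's range, and the value stayed below all 8 HFpEF libraries. Aco1 in HFpEF + TYA-018 reached 18.9 CPM in T1, where the nearest library had 17.2 CPM and the gap was 0.969 of the range. T1 was also the library with the largest total, 83.9 M counts. No cause was tested.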

How the results depend on the processing

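Over 23 alternatives, 618 of 689 fold changes of the 10 genes kept their direction and their side of the threshold, 17 passed it newly, 21 lost it and 33 changed sign; the cause was not tested in any case. The cycling covariate and the model with lengths on 11 libraries were chosen after the data were seen. TPM scales move the median of all genes, by 0.17 (pseudocount 1) and 0.34 (pseudocount 0.1) between the HFpEF groups on the log2 scale. No paired analysis was possible because the groups have different animals with different numbers.

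Of the 10 genes, 2 were called in HFpEF + Veh against Control + Veh. The count was 1 with the lengths as offsets and on either TPM scale, and 0 with the red cell or cycling covariate (4 and 0 at an unadjusted p under 0.05). It was 2 to 4 with a library left out, and 4 without C1 (Fth1 and Ireb2 were added). The share of all genes called was 21.2% in the main fit, 10.1% with lengths, and 1.2% and 2.1% on TPM with pseudocounts 1 and 0.1. It was 0.014% and 0% with the covariates and 13.7% to 27.5% with a library left out (27.5% without C1). In HFpEF + TYA-018 against HFpEF + Veh the count of 2 became 4 on either TPM scale, 1 on TPM rescaled over nuclear protein-coding genes, and 0 with either covariate (3 and 1 at an unadjusted p under 0.05), and was 2 to 3 with a library left out. There the share of all genes was 19.3% in the main fit, 16% and 18.3% on TPM, and 5.58% on rescaled TPM. With the covariates it was 0% and 0.37%, and with a library left out 10.2% to 22.4%. In HFpEF + TYA-018 against Control + Veh the count of 1 became 0 on all 3 TPM scales, with the cycling covariate and with lengths on 11 libraries (between 1 and 4 at an unadjusted p under 0.05), 2 with the red cell covariate, 3 with DESeq2, and 1 to 2 with a library left out (2 without V1). Here the share of all genes was 5.86% in the main fit and 0.0628%, 0.0767% and 0.733% on the TPM scales. It was 0.105% with the cycling covariate, 0.2% with lengths on 11 libraries and 3.1% with the red cell covariate. DESeq2 called 10.6%, and fits with a library left out called 2.12% to 5.58%.

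Of the other iron genes, 14 were called between the vehicle groups. The count was 7 with lengths, 4 with lengths on 11 libraries, 2 and 3 on TPM with pseudocounts 1 and 0.1, 8 on rescaled TPM, 0 with either covariate, and 9 (without V1) to 23 (without C1) with a library left out. Between the HFpEF groups 17 became 8 with lengths, 7 with lengths on 11 libraries, 11 on TPM with pseudocount 1, 7 on rescaled TPM, 0 with either covariate, and 10 (without T2) to 18 with a library left out (11 without T1). Between HFpEF + TYA-018 and Control + Veh 1 became 0 with lengths (12 or 11 libraries), on all 3 TPM scales and with the cycling covariate, 5 with DESeq2, and 1 to 2 with a library left out (2 without C1, V3 or T4). With the covariates 8 and 3 had an unadjusted p under 0.05 between the vehicle groups and 8 and 11 between the HFpEF groups. The shares of all genes given above apply to these counts too. Between the vehicle groups the share was also 4.72% with lengths on 11 libraries, 7.95% on rescaled TPM and 17.3% without V1. Between the HFpEF groups it was 8.52% with lengths, 6.97% with lengths on 11 libraries, 10.2% without T1 and 11.2% without T2.

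The genes that changed sign were not called before or after. Between the vehicle groups, Trf became 0.13 with lengths, 0.14 with lengths on 11 libraries, 0.17 on rescaled TPM and ranged from -0.14 (without C2) to 0.015 (without C1) with a library left out. Ireb2 became -0.087 and -0.17 on TPM with pseudocounts 1 and 0.1, and -0.078 with the cycling covariate, under which Fth1 became 0.19 and Aco1 -0.17. Between the HFpEF groups, Slc11a2 became -0.63 with lengths on 12 or 11 libraries, -0.082 and -0.12 on TPM, and -0.51 on rescaled TPM. Aco1 became -0.0031 with lengths and -0.018 on rescaled TPM. On TPM with pseudocounts 1 and 0.1 Ireb2 became 0.14 and 0.25 and Trf 0.0073 and 0.0078. Steap3 became -0.12 with the red cell covariate, Fth1 -0.048 with the cycling covariate and Hamp ranged from -0.89 (without T3) to 1.52 (without V1) with a library left out. Between HFpEF + TYA-018 and Control + Veh, Fth1 became 0.21 with lengths, 0.15 with lengths on 11 libraries, 0.44 on either TPM scale, 0.25 on rescaled TPM and 0.14 with the cycling covariate. Ireb2 became 0.048 and 0.083 on TPM, and ranged from -0.081 (without T3) to 0.024 (without C1; 0.0043 without T1) with a library left out.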
